A study of Mus musculus with 9 samples.

Results

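Nucleotide synthesis enzymes were followed in NIH-3T3 cells, a mouse embryonic fibroblast line. The 9 genes chosen were Rrm1, Rrm2, Tyms, Tk1, Dut, Cad, Umps, Impdh2 and Ppat. They were taken by gene name, with earlier results of these data known. Of these, 8 were found on a probe set annotated to that gene alone, and all 8 passed the level filter, out of 11963 genes tested. Impdh2 was named on no probe set in the annotation used and is not analysed here. Each culture was transfected with 25 nM RNA by the lipid reagent DharmaFECT 1 and taken after 48 hours. The control group received a RISC-free siRNA, which is chemically altered so that RISC does not load it. The mimic group received a synthetic form of mmu-miR-378-3p, and the inhibitor group an RNA that blocks it. Each group had 3 arrays of the same line, and no mimic or inhibitor of another sequence was among the groups. Values are log2 RMA levels of total RNA on whole-transcript arrays, so a difference of 1 is a doubling, and levels are not compared between genes.

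A cell that copies its DNA needs balanced supplies of the deoxynucleotides. Ribonucleotide reductase, built from the Rrm1 and Rrm2 proteins, makes them from ribonucleotides. Thymidylate comes from thymidylate synthase (Tyms) or, from salvaged thymidine, through thymidine kinase 1 (Tk1), while Dut removes dUTP so that uracil stays out of DNA. Upstream, Cad carries out the opening steps of pyrimidine synthesis and Umps its closing steps. Ppat commits ribose phosphate to purine synthesis. Several of these genes are known for high expression in S phase, and Myc and E2F factors are known regulators of nucleotide synthesis genes.

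Among the members Ppat rose most with the inhibitor and Tyms had the smallest inhibitor difference. Rrm2 had the lowest adjusted p between mimic and inhibitor, and Rrm1 encodes its partner subunit. Cad, which fell most with the mimic, held no match to the letters marked below and is not shown. The regions before the start sites are shown for Ppat, Rrm1, Rrm2 and Tyms, the 4 tested members with a match. Each is the 250 bases before the RefSeq start site in GRCm38.p6, 5′ to 3′ on the strand of the gene: Ppat at chr5:76951579-76951828, minus strand, Rrm1 at chr7:102441445-102441694, plus strand, Rrm2 at chr12:24708004-24708253, plus strand and Tyms at chr5:30073626-30073875, minus strand. Capitals mark matches on either strand to TTCCCGC or TTGGCGC, which are cores of E2F sites, to the E-box CACGTG that Myc binds with Max, and to the CCAAT box.
Ppat: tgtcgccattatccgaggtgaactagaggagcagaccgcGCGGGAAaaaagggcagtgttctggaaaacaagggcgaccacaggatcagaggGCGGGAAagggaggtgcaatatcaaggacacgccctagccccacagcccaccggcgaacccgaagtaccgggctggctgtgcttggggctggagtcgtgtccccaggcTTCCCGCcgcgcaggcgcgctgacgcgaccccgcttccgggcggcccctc
Rrm1: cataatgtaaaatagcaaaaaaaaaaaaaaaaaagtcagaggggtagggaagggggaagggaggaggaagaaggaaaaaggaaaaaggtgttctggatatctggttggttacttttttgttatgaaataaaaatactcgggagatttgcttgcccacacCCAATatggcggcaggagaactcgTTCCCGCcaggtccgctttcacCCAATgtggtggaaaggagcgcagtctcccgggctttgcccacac
Rrm2: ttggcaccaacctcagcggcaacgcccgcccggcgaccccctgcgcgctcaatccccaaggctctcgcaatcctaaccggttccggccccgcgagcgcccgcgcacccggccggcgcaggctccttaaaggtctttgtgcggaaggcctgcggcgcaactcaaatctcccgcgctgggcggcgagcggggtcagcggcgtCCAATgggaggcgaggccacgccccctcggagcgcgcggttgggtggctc
Tyms: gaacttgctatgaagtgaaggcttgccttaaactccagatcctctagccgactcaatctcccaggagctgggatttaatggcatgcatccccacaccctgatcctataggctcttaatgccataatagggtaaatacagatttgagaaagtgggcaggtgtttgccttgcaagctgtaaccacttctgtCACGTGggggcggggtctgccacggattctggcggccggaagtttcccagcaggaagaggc

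The same letters were searched in all 32851 RefSeq windows of 300 bases, which run from 250 bases before to 50 after a start site, and all 9 listed genes had a window. TTCCCGC was present in 4.6% of windows and in those of Ppat and Rrm1. The Ppat window held 3 matches, and 8 windows of the 32851 (0.0244%) held at least 3. That cutoff is the count of Ppat itself and was used for this motif alone, so the share is no test. TTGGCGC was present in 2.45% of windows and, of the listed genes, in that of Impdh2, where it shares bases with a CCAAT match. CACGTG was present in 7.15% of windows and in those of Tyms and Impdh2, and CCAAT in 37.4% and in those of Rrm1, Rrm2 and Impdh2. The windows of Cad, Umps, Tk1 and Dut held none of these letters. A match is a description of the sequence, and binding was not measured here.

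The arrays had like medians over all probe sets, of 3.94 to 4.03, but their upper quartiles differed. These were 5.64 to 5.65 on the controls, 5.63, 5.66 and 5.55 on mimic 1 to 3 and 5.76, 5.67 and 5.69 on inhibitor 1 to 3. With the level filter at the 60th percentile, the median difference of all genes was -0.02 with the mimic and 0.06 with the inhibitor. Between mimic and inhibitor it was -0.08. The part of this shift in the members' differences was not tested. The members' inhibitor rises past the threshold were smaller after quantile normalization and after median centring, as given below. Mimic 3 and inhibitor 1 lay at the ends of the first principal component, which held 60.5% of the variance (scores of -20.5 and 20.88, with the controls from -4.38 to -2.78). They are called the end arrays here. The fibroblast markers were high on all arrays, with group means of 6.76 to 11.29 for 7 genes, while 14 markers of macrophages, epithelium, endothelium and muscle had group means of 3.43 to 4.91, and 7 of these lay below the level filter. Summed over its genes and divided by their number, the second list was at 3.91 to 3.93 on the control arrays, 3.91 to 3.94 with the mimic and 3.86 to 3.91 with the inhibitor. In a bulk culture, fewer cells that express a gene and less RNA per cell cannot be told apart.

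Of the ribonucleotide reductase genes, Rrm2 and Rrm1 were higher with the inhibitor, while Rrm2b, close to the level filter, was not called. The call of Rrm1 depended on single arrays, as given below. Rrm2, the small subunit whose level limits the enzyme in cycling cells, read 7.58, 7.56 and 7.61 on the control arrays, 7.36, 7.46 and 7.27 with the mimic and 8.05, 8.07 and 8.04 with the inhibitor. The 3 groups did not overlap, and the mimic arrays were lowest. Rrm2 rose with the inhibitor by 0.47 ± 0.06 (log2, SE), a 1.38-fold change (limma, adjusted p = 0.000618). With the mimic its level was 0.22 ± 0.06 lower, a difference that narrowly missed the threshold (limma, adjusted p = 0.0604). That fall passed without mimic 2 (adjusted p = 0.0219) and after quantile normalization (0.0409).

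Rrm1, the large subunit, which holds the catalytic site, read 8.76, 8.67 and 8.78 in the controls, 8.52, 8.71 and 8.40 with the mimic and 9.07, 8.95 and 9.01 with the inhibitor. All inhibitor arrays lay above the controls, while mimic 2 lay among the controls. Rrm1 rose by 0.28 ± 0.08 with the inhibitor (limma, adjusted p = 0.0335). This call ended without control 1, 2 or 3 (adjusted p = 0.0872, 0.124 and 0.0754), without mimic 1 (0.0536), without inhibitor 1 or 3 (0.111 and 0.0933), and with no level filter (0.0568). The mimic difference of -0.19 ± 0.08 did not pass (limma, adjusted p = 0.242). It was -0.27 without mimic 2, where it passed (adjusted p = 0.0455), and -0.12 without mimic 3 (0.43). Rrm2b, the other small subunit and a known p53 target, read 4.16 to 4.23 over all 9 arrays, close to the level filter of 3.86. Its inhibitor difference of 0.02 had a 95% interval of -0.08 to 0.12. All 3 inhibitor arrays held the same value (4.22), as did control 2, mimic 2 and mimic 3. That interval thus rests on the spread of the other groups and on the moderation by limma.

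The thymidylate genes differed among themselves. Tyms read 6.89, 6.89 and 6.87 in the controls and 6.73, 6.64 and 6.65 with the mimic, and these groups did not overlap. With the inhibitor it read 6.92, 6.85 and 6.89, which overlaps the controls. Tyms fell with the mimic by 0.21 ± 0.05, a 1.16-fold change (limma, adjusted p = 0.0402). The adjusted p of this fall was 0.0534 to 0.155 in 8 of 9 fits that each left out an array, and it stayed past the threshold without inhibitor 1 (0.0406). It also ended in 6 of the 9 other settings, both other scalings among them. The inhibitor difference of Tyms was 0.00, with a 95% interval of -0.10 to 0.11, and its sign turned under other scalings and without control 3 or inhibitor 1.

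Tk1, the salvage kinase of thymidine, read 7.21, 7.04 and 7.13 in the controls, 6.98, 6.97 and 6.90 with the mimic and 7.40, 7.21 and 7.24 with the inhibitor. The mimic arrays lay below all controls, and inhibitor 2 lay just below control 1. Neither the mimic difference of -0.18 ± 0.07 (limma, adjusted p = 0.206) nor the inhibitor difference of 0.15 ± 0.07 (0.153) passed. The inhibitor difference was 0.09 without inhibitor 1, 0.05 after quantile normalization and 0.08 after median centring. Another probe set of Tk1 was dimmer and pointed the same way, at -0.10 with the mimic and 0.17 with the inhibitor, neither past the threshold (limma, adjusted p = 0.65 and 0.217). On it the mimic arrays (5.33, 5.57 and 5.65) overlapped the controls (5.65, 5.71 and 5.48), and mimic 3 was the highest mimic array. The inhibitor arrays there (5.75, 5.85 and 5.77) lay above all controls.

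Dut, the dUTP hydrolase, read 5.41, 5.51 and 5.55 in the controls, 5.45, 5.55 and 5.53 with the mimic and 5.60, 5.64 and 5.62 with the inhibitor. The inhibitor arrays were highest, by a small margin, and the other groups overlapped. The inhibitor difference of 0.13 ± 0.05 did not pass (limma, adjusted p = 0.145) and was 0.06 under both other scalings. The mimic difference of Dut was 0.02, with a 95% interval of -0.10 to 0.14. The sign of that small difference turned without control 1 or mimic 2.

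**Figure D1:**
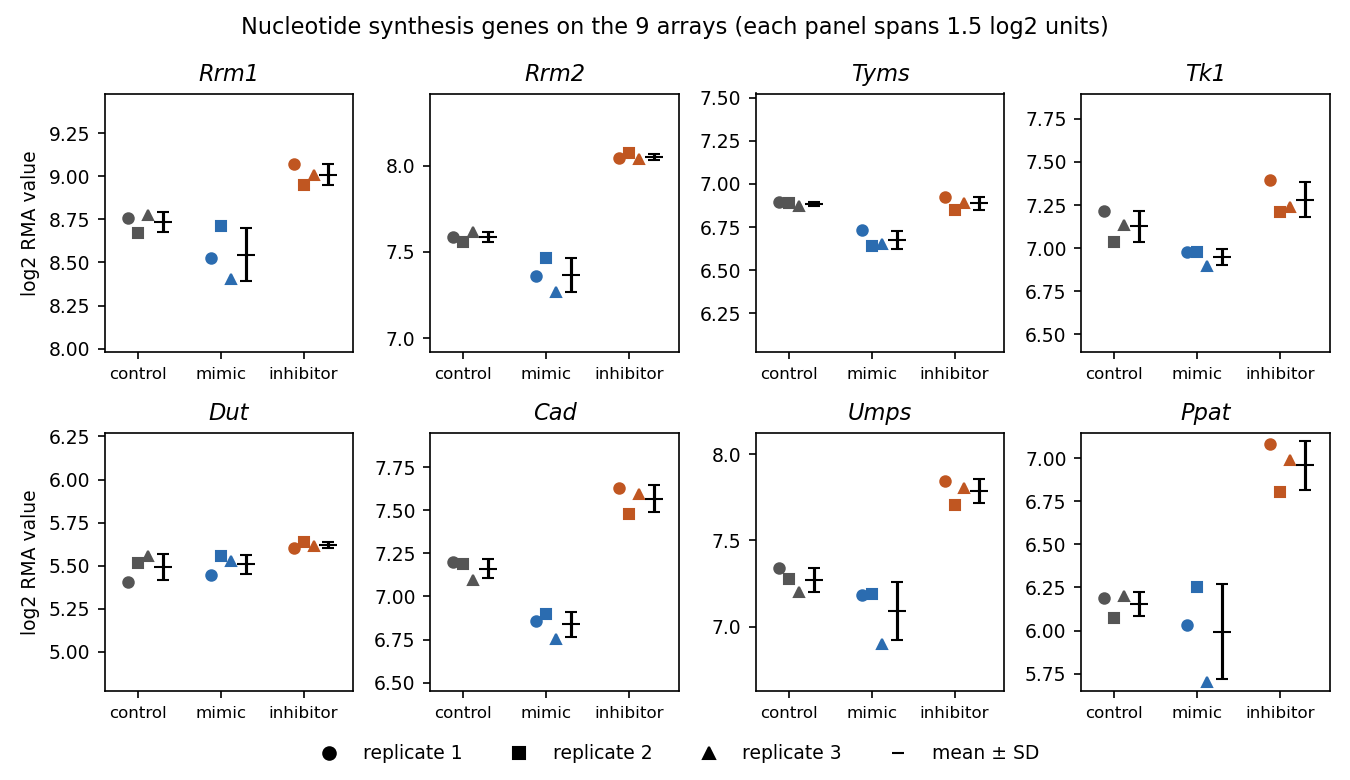
Log2 RMA values of the 8 genes on the 9 arrays, with a panel per gene, symbols for the replicate numbers and bars for the mean ± SD of 3 arrays. The inhibitor arrays lie above the controls for Rrm1, Rrm2, Dut, Cad, Umps and Ppat, and the mimic arrays lie below them for Rrm2, Tyms, Tk1, Cad and Umps.

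The pyrimidine genes Cad and Umps rose with the inhibitor. Cad, whose protein joins carbamoyl phosphate synthetase, aspartate transcarbamoylase and dihydroorotase in 1 chain, read 7.20, 7.19 and 7.10 in the controls, 6.86, 6.90 and 6.76 with the mimic and 7.63, 7.48 and 7.59 with the inhibitor. The 3 groups were fully separate, with the mimic arrays lowest and the inhibitor arrays highest. Cad rose by 0.41 ± 0.06 with the inhibitor (1.33-fold, limma, adjusted p = 0.00176) and fell by 0.32 ± 0.06 with the mimic (1.25-fold, limma, adjusted p = 0.0171). It was the 1 member called in both directions, against 0.401% of all genes tested. Both calls use the same control arrays, and the fall with the mimic missed the threshold without control 1 (adjusted p = 0.0913), control 2 (0.0808) or mimic 1 (0.0579).

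Umps, the bifunctional enzyme that turns orotate into UMP, read 7.34, 7.27 and 7.20 in the controls, 7.18, 7.19 and 6.90 with the mimic and 7.84, 7.71 and 7.80 with the inhibitor. The groups were separate, although mimic 1 and mimic 2 lay just under control 3. Umps rose by 0.51 ± 0.08 with the inhibitor (1.43-fold, limma, adjusted p = 0.00255). The mimic difference of -0.18 ± 0.08 did not pass (limma, adjusted p = 0.307) and was -0.08 without mimic 3.

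Ppat, the amidophosphoribosyltransferase of the committed purine step, rose most among the members with the inhibitor. It read 6.19, 6.07 and 6.20 in the controls and 7.08, 6.81 and 6.99 with the inhibitor, so every inhibitor array stood well above every control. Ppat rose by 0.80 ± 0.12 with the inhibitor, a 1.75-fold change (limma, adjusted p = 0.00204). With the mimic it read 6.03, 6.25 and 5.70, a spread that covers the controls. The mimic difference was -0.16 ± 0.12 (limma, adjusted p = 0.595), with a 95% interval of -0.43 to 0.11. It was -0.01 without mimic 3 and -0.29 without mimic 2, and passed in neither.

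**Figure D2:**
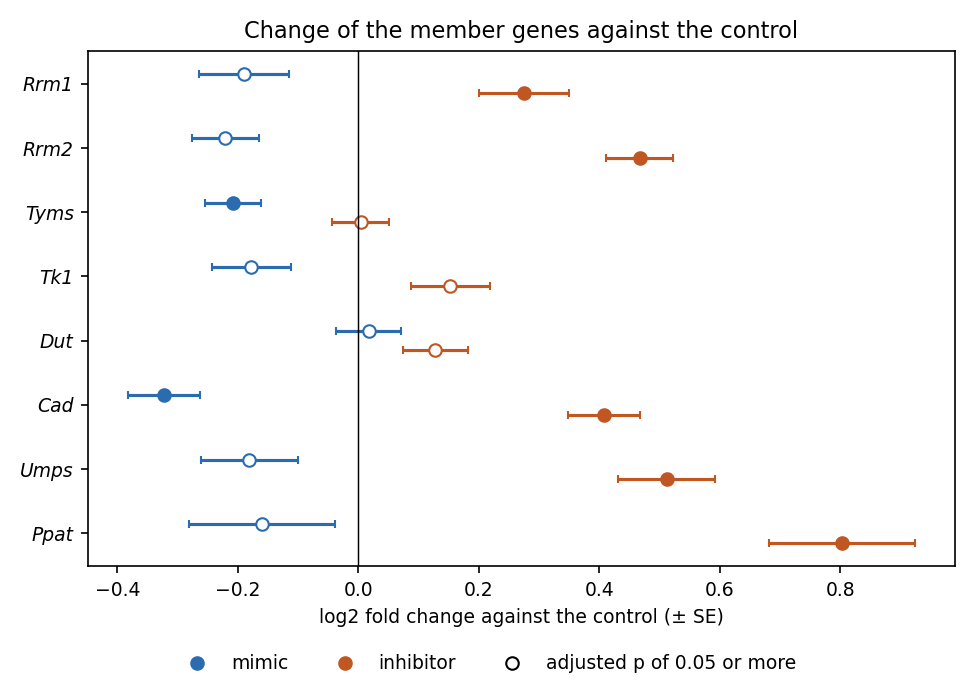
Log2 fold change of the 8 genes with the mimic and with the inhibitor against the shared controls, with bars for the standard error and filled symbols for an adjusted p under 0.05. Ppat lies farthest from 0 with the inhibitor (0.80) and Cad with the mimic (-0.32).

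Counted together, 5 of the 8 members rose with the inhibitor and none fell (limma), where 14.9% of all genes tested were called, 11.1% rose and 3.76% fell. The members' median was 0.34, beside 0.01 over all genes tested. After quantile normalization and after median centring the 5 rises were smaller and still passed (limma). In that order they were 0.70 and 0.73 for Ppat, 0.41 and 0.44 for Umps and 0.38 and 0.40 for Rrm2. For Cad they were 0.31 and 0.34, and for Rrm1 0.21 in both. With the mimic 2 of 8 fell and none rose (limma), where 3.55% of all genes were called, 2.45% fell and 1.1% rose, and the median was -0.19, beside -0.01. The mimic count was 0 without control 1, control 2 or mimic 1, 1 without control 3, mimic 3, inhibitor 2 or inhibitor 3, and 3 without mimic 2. Groups did not overlap in 6 of 8 members with the inhibitor (37.7% of all genes) and in 5 of 8 with the mimic (21.3%). The latter 5 include Tk1, whose other probe set did overlap with the mimic. Rrm2, Cad and Umps had all 3 groups separate in the order mimic, control, inhibitor, as had 3.99% of all genes. All 8 members were tested with their values as deposited, and none of the 9 listed was dropped for a low level. Since earlier results of these data were known when the members were chosen, the shares of all genes describe and do not test them.

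Mimic and inhibitor were then set against each other, which leaves the control arrays out of the difference. All 8 members were lower with the mimic, with no overlap between these groups in any of them, as in 38.6% of all genes tested. The difference passed in 7 of 8 (limma), where 26.8% of all genes were called, 19.9% lower and 6.91% higher with the mimic. It was -0.96 ± 0.12 for Ppat (1.95-fold, limma, adjusted p = 0.000389), -0.73 ± 0.06 for Cad (4.67e-05), -0.69 ± 0.08 for Umps (0.000256) and -0.69 ± 0.06 for Rrm2 (4.44e-05). For Rrm1 it was -0.46 ± 0.08 (limma, adjusted p = 0.00151), for Tk1 -0.33 ± 0.07 (0.00437) and for Tyms -0.21 ± 0.05 (0.00777). Tyms lost this call after quantile normalization (-0.06, adjusted p = 0.431) and median centring (-0.11, 0.116). That of Tk1 was -0.19 after quantile normalization and still passed. Dut, at -0.11 ± 0.05, did not pass (limma, adjusted p = 0.158) and was -0.01 under both other scalings.

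Among the arrays, mimic 3 held the lowest value of all 9 in 6 members and inhibitor 1 the highest in 6. The median of the members against the control mean was -0.15, -0.10 and -0.33 on mimic 1 to 3 and 0.40, 0.27 and 0.35 on inhibitor 1 to 3. Each mimic array was thus below the controls, and each inhibitor array above them. Without both mimic 3 and inhibitor 1 the members called were again 2 with the mimic, 5 with the inhibitor and 7 between the 2 groups. With the mimic, more of all genes tested were called in that fit than with all 9 arrays, as the last section gives.

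Genes of DNA replication moved with the members. Of 19 replication genes 15 rose with the inhibitor and 7 fell with the mimic (limma), where 11.1% and 2.45% of all genes tested did. The medians of the 19 genes were 0.39 and -0.23. Their median by array was -0.20, -0.18 and -0.38 on the mimic arrays and 0.47, 0.32 and 0.40 on the inhibitor arrays. Within each of these groups the arrays fell in the same order as for the members. The medians of all genes tested gave that order too, so it is not particular to these lists. They were 0.000, 0.016 and -0.049 on mimic 1 to 3 and 0.024, 0.011 and 0.016 on inhibitor 1 to 3. The falls with the mimic numbered 2 without control 1, control 2 or mimic 1, 3 without control 3 and 4 without inhibitor 3. Of 11 mitosis genes tested out of 12 listed, 7 fell with the mimic, with a median of -0.43. With the inhibitor limma called none of the 11 (2 with an unadjusted p under 0.05), with a median of 0.03. The direction of such calls turned with the setting: 2 fell after quantile normalization and 1 after median centring, while 2 rose without mimic 3 and 1 without mimic 2. The part of a change in cycling in the members' values was not tested.

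**Figure D3:**
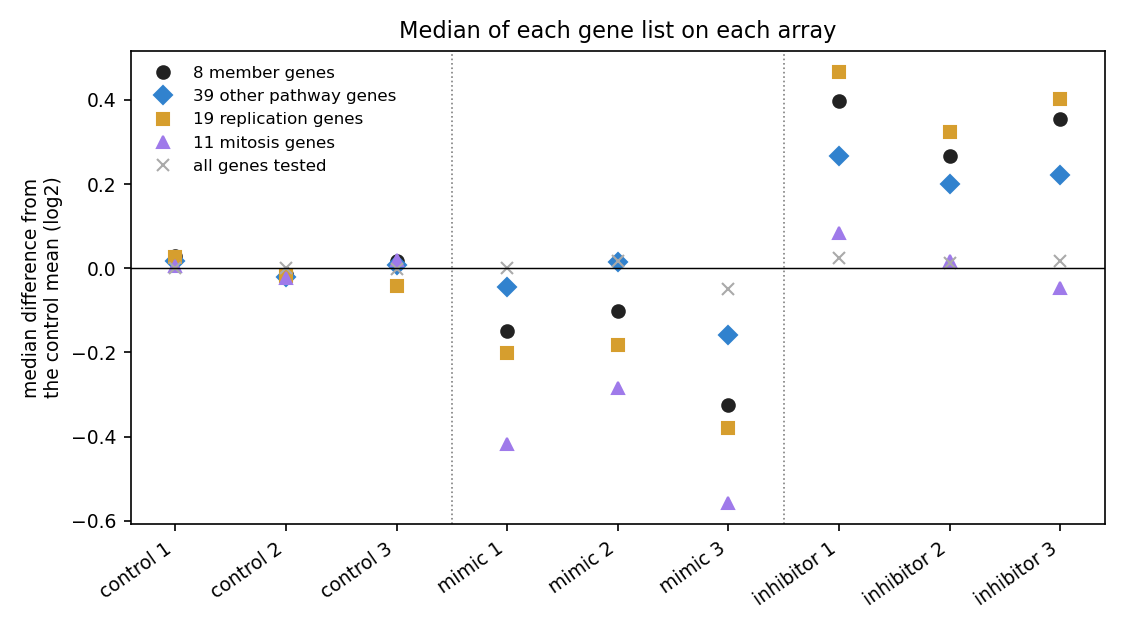
Median difference from the control mean (log2) on each of the 9 arrays for the 8 members, 39 other nucleotide genes, 19 replication genes, 11 mitosis genes and all genes tested. The members and the replication genes lie below 0 on the mimic arrays and above it on the inhibitor arrays, while the mitosis genes lie between -0.05 and 0.08 on the inhibitor arrays.

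The rest of the pathway was taken from a list of 46 genes, of which 39 were tested. With the inhibitor 16 rose and 1 fell (limma), where 11.1% of all genes tested rose and 3.76% fell. The median of the 39 was 0.23. With the mimic 2 rose and 2 fell (limma), where 1.1% of all genes rose and 2.45% fell. The median there was -0.05. The mimic calls numbered 0 without control 1, control 2 or mimic 1, 1 without control 3, and 2 without mimic 2 or inhibitor 3. Between mimic and inhibitor 22 were lower and 3 higher with the mimic, where 19.9% and 6.91% of all genes were. The same shares of all genes stand beside the counts of the smaller lists below.

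Of 14 purine genes tested, 8 rose with the inhibitor and none fell (limma), at a median of 0.33. After Ppat in the pathway come Gart, which rose by 0.52, and Pfas, which rose by 0.63 (limma, adjusted p = 0.00391 and 0.00497). Pfas read 6.28, 6.29 and 6.14 in the controls and 7.03, 6.74 and 6.84 with the inhibitor, with no overlap. Atic, which closes the ring to IMP, rose by 0.42 (limma, adjusted p = 0.000795). Gmps, which makes GMP, and Adss, on the branch to AMP, rose by 0.49 and 0.50 (0.00116 and 0.00847). Prps1 and Prps2, which make the ribose phosphate donor, rose by 0.32 and 0.34 (0.00929 and 0.0266), the latter call ending without control 1 or 2 or inhibitor 1 or 3 or with no level filter (adjusted p of up to 0.102). The differences of Adsl (0.13), Impdh1 (0.12), Adk (0.23), Aprt (0.03) and Guk1 (-0.01) did not pass.

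Paics starts 276 bases from Ppat on the opposite strand in the RefSeq annotation, and the pair are known to share a start region. Paics read 10.07, 10.10 and 9.98 in the controls and 10.28, 10.25 and 10.36 with the inhibitor. The groups did not overlap, but the difference of 0.25 did not pass (limma, adjusted p = 0.0812), with a 95% interval of 0.06 to 0.44. It passed without mimic 3 (adjusted p = 0.00508), and also after quantile normalization, in the fit of 6 arrays and without both end arrays. The difference between Paics and Ppat was not tested. The mimic difference of Paics was -0.02, with a 95% interval of -0.21 to 0.18, and 0.10 without mimic 3.

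Prps2 was the purine gene that fell with the mimic, from 5.59, 5.54 and 5.71 in the controls to 5.14, 5.31 and 5.00 (by 0.47, limma, adjusted p = 0.0181). This call ended without control 1, 2 or 3 or mimic 1 (adjusted p of up to 0.0909). Hprt, the salvage enzyme of hypoxanthine and guanine, rose in both comparisons, by 0.31 with the mimic (0.0251) and 0.47 with the inhibitor (0.00108). Hprt held the same value (8.09) on mimic 1, mimic 2 and inhibitor 2. Its mimic call ended in 5 of 9 fits that each left out an array, with adjusted p of up to 0.11.

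**Figure D4:**
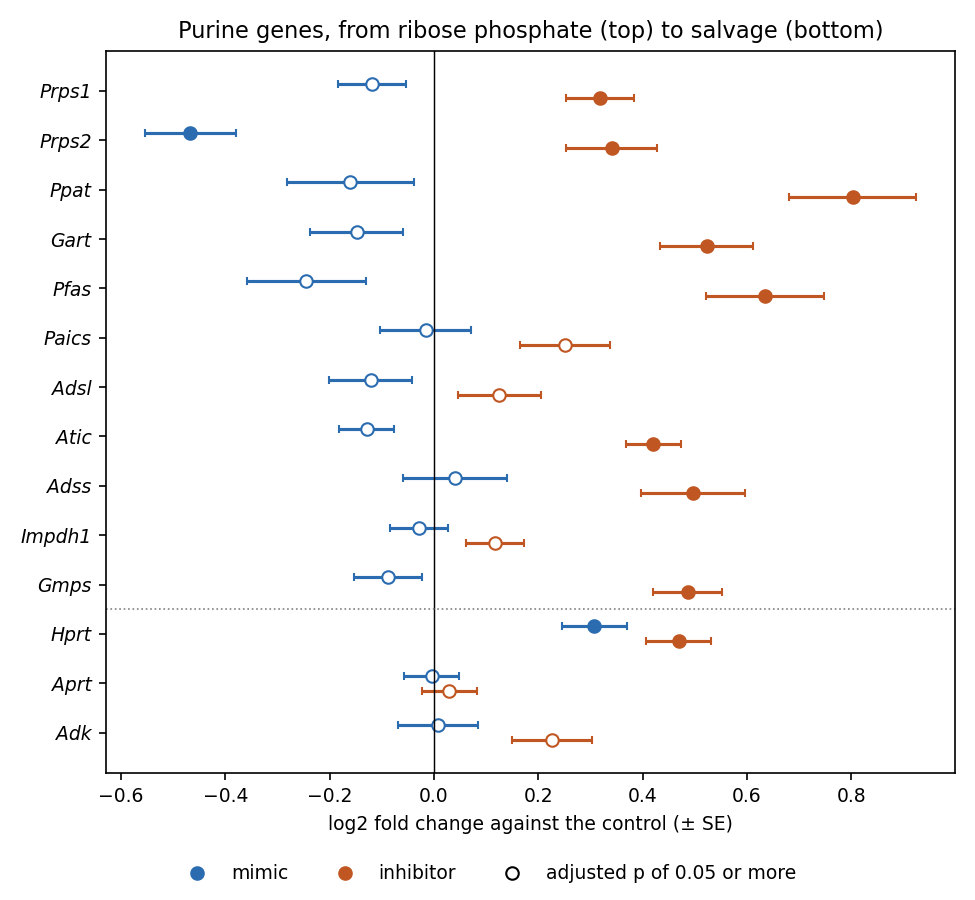
Log2 fold change against the control, with standard errors, of Ppat and 13 other purine genes in the order of the pathway, with salvage genes under the dotted line and filled symbols for an adjusted p under 0.05. With the inhibitor Ppat (0.80), Pfas (0.63) and Gart (0.52) lie farthest to the right, and with the mimic Prps2 lies farthest to the left (-0.47).

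Among 8 other pyrimidine genes, 2 rose with the inhibitor and none fell (limma), at a median of -0.00. Ctps, the CTP synthetase, rose by 0.60 (limma, adjusted p = 0.00362), while Ctps2 was at -0.03. Uck2, a uridine and cytidine kinase, read 6.61, 6.73 and 6.64 in the controls, 6.47, 6.39 and 6.38 with the mimic and 7.28, 7.12 and 7.24 with the inhibitor, and the 3 groups were separate. It rose by 0.56 with the inhibitor (0.000308) and fell by 0.24 with the mimic (0.0481), a call that ended in 7 of 9 fits that each left out an array and in 8 of 9 other settings (adjusted p of up to 0.181). Cmpk1, the UMP and CMP kinase, rose by 0.36 with the mimic (0.0257), a call that ended in 5 of the 9 fits without an array and in the fit of 6 arrays (up to 0.124), and its inhibitor difference was 0.00. Dhodh, the mitochondrial enzyme between the steps of Cad and Umps, was at 4.23, 4.19 and 4.23 in the control, mimic and inhibitor groups. These levels are close to the level filter of 3.86, where a change may not show.

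Of 7 other deoxynucleotide genes, 2 rose and 1 fell with the inhibitor, and limma called none with the mimic (1 with an unadjusted p under 0.05). Dctd, the dCMP deaminase, rose by 0.32 and Dck, the deoxycytidine kinase, by 0.25 (limma, adjusted p = 0.00968 and 0.0282). The call of Dck ended without control 1 or 2 or inhibitor 1 or 2 (up to 0.114) and under both other scalings. Dguok, the mitochondrial deoxyguanosine kinase, went from 6.52, 6.46 and 6.38 in the controls to 6.12, 6.12 and 6.13, and so fell by 0.33 (0.00344). Dtymk, the kinase of thymidylate, was at -0.20 with the mimic (adjusted p = 0.066) and -0.03 with the inhibitor.

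One-carbon genes supply formyl and methylene groups to purines and thymidylate. Of 10 tested, 4 rose with the inhibitor and none fell (limma), and limma called none with the mimic (5 with an unadjusted p under 0.05). Mthfd1l rose by 0.67, Mthfd1 by 0.59, Shmt1 by 0.34 and Shmt2 by 0.33 (limma, adjusted p = 0.00109, 0.0283, 0.0135 and 0.0143). Mthfd1 read 6.90, 6.83 and 6.92 in the controls, 6.49, 6.59 and 5.89 with the mimic and 7.64, 7.33 and 7.44 with the inhibitor. It differed most of the 39 genes between mimic and inhibitor (-1.15, limma, adjusted p = 0.000533). Its inhibitor call ended in 5 of 9 fits that each left out an array and with no level filter (up to 0.109). That of Shmt1 ended without control 3 or inhibitor 3 (up to 0.0576), and that of Shmt2 without control 2 (0.0616). The inhibitor count was 2 without control 2, control 3 or inhibitor 3.

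The closest patterns were sought by the mean absolute difference over the 9 arrays, each gene taken against its own control mean. Nearest to Rrm2 were Nolc1 and Nceh1 (0.04 each), to Rrm1 Cars and Bpnt2 (0.03 each), and to Tyms Jade2 and Parn (0.03 each). Nearest to Tk1 were Snord52 and Chtf18 (0.03 each), to Umps Actn1 (0.03) and Slc2a1 (0.04), and to Ppat Fat1 (0.05) and Ddx21 (0.06). Nearest to Cad were Mcm2, a subunit of the replicative helicase, and Tmem183a (0.04 each). Among the members themselves Rrm2 and Umps were closest (0.07), followed by Rrm2 and Cad (0.08). All arrays enter these distances, so shared group differences and shared array quality both count towards them.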

How the data were processed

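The study put total RNA of NIH-3T3 cells on Affymetrix whole-transcript arrays, 9 in all and 3 to a group. What the authors deposited is a table of log2 values with a column for each array, and the submitters' processing notes name Partek 6.5 and RMA. As for a genome build, it was not given in the sources used here. The columns of samples left unused number 0.

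Of 28853 probe sets, 21789 were annotated to 1 gene, 1621 to several and 5443 to none. Each gene took its brightest probe set (among the members only Tk1 had a choice), and genes whose mean lay under the 40th percentile (3.86) were dropped. For the remaining 11963 genes, limma 3.58.1 (R 4.3.3) estimated the 3 group means over all 9 arrays with empirical Bayes moderation. Adjusted p-values are Benjamini-Hochberg values over these genes, with a threshold of 0.05, and the code was tested on simulated data. The labels number the samples of a group but name no separate cultures. The p-values then cover the spread between these samples alone, which may be technical, and the number of arrays limits the precision. At most 3.58% of values were identical between any 2 arrays.

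The members and lists were chosen with earlier results of these data known. Named are all members, Paics, Rrm2b, every other pathway gene past the threshold against the control, some of those past it only between mimic and inhibitor, and the 2 nearest patterns of each member called. Impdh1, Adk, Aprt, Guk1, Ctps2 and Dhodh, which passed in no comparison, were named after their values were seen. Promoter windows come from RefSeq (GRCm38.p6). Settings tried instead were another or no level filter, both other scalings (quantile normalization and median centring), fits limited to 6 arrays, a replicate block, trended moderation, averaged probe sets and arrays left out. The settings for sublists and single pathway genes were chosen after seeing the data. Plots used matplotlib 3.10.9 (Python 3.11.15).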

Additional observations from a re-analysis of the deposited data

How the results depend on the processing

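The members' count with the inhibitor (5) was 4 to 5 with single arrays left out, and that between mimic and inhibitor (7) stayed at 7 there. The mimic count (2) was 0 to 3 with single arrays left out, and 1 with the filter at the 60th percentile, median centring, the fit of 6 arrays, the replicate block or moderation with trend. The other pathway genes called numbered 0 to 5 with the mimic, 13 to 23 with the inhibitor and 19 to 28 between both, with single arrays left out. With the mimic (4) they numbered 2 in the fit of 6 arrays and 2 with the replicate block. Over all genes, the 425 mimic calls were 248 in the fit of 6 arrays, 652 after median centring, 836 after quantile normalization and 911 without both end arrays. With single arrays left out they were 133 to 582, the 1780 inhibitor calls 974 to 2790, and the 3204 calls between both 2310 to 3669. The split of rises to falls went from 132 to 293 with the mimic to 369 to 467 after quantile normalization, 294 to 358 after median centring and 300 to 282 without mimic 3. For the inhibitor it went from 1330 to 450 to 1229 to 1166 and 1153 to 1140 under these scalings, and between both groups from 827 to 2377 to 1827 to 1946 and 2347 to 1806.

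The replicate block left 1 member called with the mimic (Cad) and 4 with the inhibitor, losing Tyms (adjusted p = 0.0751) and Rrm1 (0.0603). Of the other pathway genes, the block ended the mimic calls of Cmpk1 and Uck2, the inhibitor call of Prps2, and the calls of Paics, Nme2 and Mthfd2l between mimic and inhibitor. Same-numbered arrays had correlations of residuals from -0.59 to 0.22, and 2 of 9 arrays were closest to an array of their own number, so the numbers give no sign of pairing.

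Small differences, none of them called, changed sign. Dut with the mimic ranged from -0.0255 (without control 1) to 0.0488 with single arrays left out, and was also below 0 without mimic 2. Tyms with the inhibitor was -0.104 after quantile normalization, -0.0652 after median centring and -0.0134 without both end arrays, and ranged from -0.0134 (without inhibitor 1) to 0.0235 with single arrays left out. Paics with the mimic was 0.0126 after median centring and 0.0976 without both end arrays, and ranged from -0.0779 to 0.0976 (without mimic 3). Rrm2b with the mimic was -0.00809 after quantile normalization and -0.00619 without both end arrays, and ranged from -0.0204 (without control 1) to 0.0202. With the inhibitor Rrm2b was -0.0491 after median centring and ranged from -0.00288 (without control 1) to 0.0331, and between mimic and inhibitor it was 0.0801 after median centring. Of 432 refits of member differences, 395 kept direction and side of the threshold, 27 lost a call, 3 gained one and 7 changed sign. No scaling moved the median difference of all genes by over 0.1. The cause of these changes was not tested.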
